A study of Mus musculus with 16 samples.

Results

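DNA replication and S-phase genes were followed in CT26 cells, a mouse colon carcinoma line, by 46 genes chosen by name: the loaders and subunits of the replicative helicase, the DNA polymerases, the sliding clamp with its loader, the enzymes of nucleotide supply, and the factors that open and accompany S phase. For each gene the values are those of 1 probe set, the brightest on average of those annotated to that gene and no other, and all 46 were found among the 18193 genes that the arrays measure in this way. For 10 of the 46 genes there was 1 probe set, and the other 36 had 56 further probe sets between them. CT26 cells, of BALB/c origin, were stably transfected with the pU6-m3 vector and kept under hygromycin B selection. Control cells carried the empty vector, shSep15 cells a hairpin against Sep15 (gene Selenof, a selenoprotein of the endoplasmic reticulum), shTR1 cells a hairpin against thioredoxin reductase 1 (gene Txnrd1), and shTR1/shSep15 cells both hairpins. mRNA of each line was hybridized to 4 arrays (16 in all), and the study used the lines to ask how both selenoproteins bear on growth and the cell cycle of colon cancer cells. The sources do not state whether the 4 mRNA samples of a line were separate cultures, so p-values here measure the spread between these samples only.

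A hairpin acts on its target mRNA through the stretch that its sequence matches. The 19-nt sequence of the Sep15 hairpin and the 22-nt sequence of the TR1 hairpin are shown here because they define the lines.
Sep15 hairpin: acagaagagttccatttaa
TR1 hairpin: atcgctctgacaagcttattag

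Replication is prepared in G1 phase, when the origin recognition complex, Cdc6 and Cdt1 load the MCM helicase onto origins (licensing). At the G1/S boundary cyclin E and E2F transcription factors switch on the genes of DNA synthesis, and Cdc45, the GINS complex and Mcm10 turn the loaded helicase into a running fork. Polymerase α with primase then lays primers that polymerases δ and ε extend, held by the Pcna clamp, while ribonucleotide reductase, thymidine kinase and their partners supply the nucleotides. Many of these genes are known targets of E2F, so their mRNA rises in cells that enter S phase and is low in resting cells. A change in their signal in a bulk sample can come from the share of cells in S phase or from mRNA per cell, and these cannot be told apart here.

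The 250 bases before the annotated start of each gene were searched on both strands for 4 E2F strings (TTTCGCGC, TTTGGCGC, TTTCCCGC and TTTGCCGC), for CCAAT, for TTTGAA and for TATAAA. Promoter sequence from RefSeq (GRCm38.p6) was used for 37 of the 46 genes. An E2F string was present in 8 of these 37 (21.6%), against 2.16% of all 27025 genes with such sequence. CCAAT was present in 22 of 37 (59.5%, against 37.5% of all), TTTGAA in 5 (13.5%, against 18.3%) and TATAAA in 3 (8.11%, against 14.3%). The 8 genes with an E2F string were Mcm5, Mcm6, Mcm7, Pola1, Rfc3, Cdc6, Orc1 and Uhrf1, and the strings on opposite strands overlap in Mcm5 and in Mcm6. A match describes letters in this window and is not evidence of binding. Stretches before 4 genes are printed, read 5′ to 3′ on the strand of the gene with the E2F strings in capitals. Mcm5 and Mcm6 are helicase subunits with overlapping strings, and Rfc3 is a clamp loader gene with its string next to the start. Rrm2 has no such string, and its shSep15 and shTR1/shSep15 arrays did not overlap (below).
Mcm5, chr8:75109309-75109467, plus strand: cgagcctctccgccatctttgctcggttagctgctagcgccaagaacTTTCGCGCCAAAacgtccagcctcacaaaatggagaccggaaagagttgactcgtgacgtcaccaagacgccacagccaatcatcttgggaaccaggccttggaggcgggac
Mcm6, chr1:128359706-128359905, minus strand: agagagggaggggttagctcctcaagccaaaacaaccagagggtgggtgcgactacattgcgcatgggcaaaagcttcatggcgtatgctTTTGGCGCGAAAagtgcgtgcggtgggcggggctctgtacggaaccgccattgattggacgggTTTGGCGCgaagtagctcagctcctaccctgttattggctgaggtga
Rfc3, chr5:151651209-151651408, minus strand: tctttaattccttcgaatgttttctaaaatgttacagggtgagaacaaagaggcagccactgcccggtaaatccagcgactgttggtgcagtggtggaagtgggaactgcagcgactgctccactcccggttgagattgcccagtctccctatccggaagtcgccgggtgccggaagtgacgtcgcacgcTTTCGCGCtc
Rrm2, chr12:24708054-24708253, plus strand: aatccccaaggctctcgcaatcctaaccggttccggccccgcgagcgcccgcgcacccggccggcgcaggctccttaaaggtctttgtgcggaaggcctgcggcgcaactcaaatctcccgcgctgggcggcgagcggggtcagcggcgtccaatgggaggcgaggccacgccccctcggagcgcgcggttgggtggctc

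Signals are on the log2 scale, as summarised by RMA (Robust Multi-Array Analysis), so that a difference of 1 is a 2-fold change. Signals of different probe sets are not set against each other. Array medians lay between 4.45 and 4.58 and upper quartiles between 6.35 and 6.76, and the arrays of a line correlated at 0.939 to 0.997. Selenof was at 10.78 to 11.57 on the control arrays and fell to 8.02 to 8.29 in shSep15 cells and 7.34 to 7.86 in shTR1/shSep15 cells. Txnrd1 was at 9.45 to 10.39 on the control arrays and at 7.18 to 7.91 in shTR1/shSep15 cells, but among the arrays labelled shTR1 it was at 7.84 and 7.89 in replicates 1 and 3 and at 10.57 and 9.71 in replicates 2 and 4, within or above the control range. Values for shTR1 are therefore those of the arrays labelled shTR1, and the medians of the members are also given without replicates 2 and 4. Of the 8 epithelial markers, Krt20 was at 8.31, 5.02, 7.91 and 8.57 in control, shSep15, shTR1 and shTR1/shSep15 cells. Krt18 was at 5.94, 3.26, 7.58 and 6.45 in that order. All 8 had a lower mean in shSep15 than in control cells, and in shTR1 cells 7 were lower and Krt18 was higher. The probe set of Cdh1, which defines epithelial cells, gave 2.51 over all arrays, below all but 1.8% of genes. Of the 6 fibroblast and matrix genes, Vim and Col1a2 gave 12.85 and 11.50 over all arrays. Compared with control, shSep15 cells had 3 of the 6 higher and 3 lower. Col3a1 was among the lower (7.59, 4.55, 5.43 and 7.37 by line) and Pdgfra among the higher (4.26, 5.55, 5.78 and 4.78). The defining leukocyte gene Ptprc gave 2.76 and the endothelial gene Pecam1 3.21, but not all markers of these cells were that low, and Cd68 ran at 5.48, 5.14, 8.15 and 6.84 in the order of lines above. Their part in the results was not tested.

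Replication genes differed widely between arrays of the same line. Averaged over the 46 genes, the log2 signal was 8.04, 8.11, 8.31 and 8.55 by line mean in control, shSep15, shTR1 and shTR1/shSep15 cells, a narrower range than that of the 4 control arrays alone (7.12 to 8.74). On control replicate 1, 45 of the 46 genes lay above their own control mean, by a median of 0.67, and on control replicate 4, 44 lay above it, by 0.44. On control replicate 2, 3 of 46 lay above it and the median was −0.94, and on control replicate 3, 11 lay above it and the median was −0.23. Replicates 1 and 4 were thus the high control arrays for most members and replicate 2 the low one, while replicate 3 was less even, since 5 of the 9 clamp, loader and single-strand binding genes lay above their control mean there.

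The arrays labelled shTR1 also split. Of the 46 genes, 45 lay above the shTR1 mean on replicate 2 (median deviation 0.51) and 39 on replicate 3 (0.28), against 4 on replicate 1 (−0.55) and 9 on replicate 4 (−0.21). This split did not follow Txnrd1, which was low on replicates 1 and 3. In shSep15 cells replicate 2 stood apart, with 2 of 46 genes above the line mean and a median of −0.38, while the other arrays had medians of 0.10 to 0.21. The shTR1/shSep15 arrays lay within −0.10 and 0.10. Over all 18193 genes the medians of the 16 arrays lay between −0.06 and 0.08. The 3582 genes with signals between the members' quartiles (genes of like signal) shifted more. Their medians were 0.19, −0.21, 0.02 and −0.03 on control replicates 1 to 4. On replicate 2 of shSep15 and of shTR1/shSep15 cells they were −0.15 and −0.19.

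**Figure D1:**
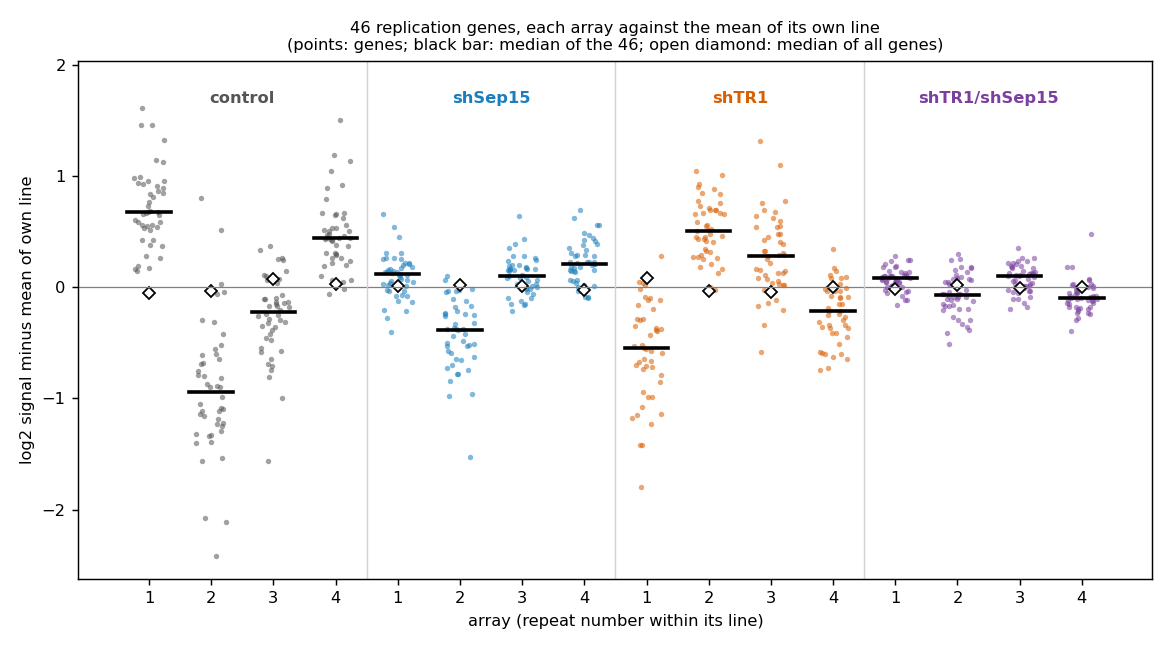
Log2 signal of each of the 46 replication genes minus the mean of its own line (vertical axis) on each of the 16 arrays (horizontal axis), with the median of the 46 genes as a black bar and the median of all 18193 genes as an open diamond. Control replicates 1 and 4 lie above and 2 and 3 below their line (medians 0.67, 0.44, −0.94 and −0.23), while the 4 shTR1/shSep15 arrays stay within 0.10 of it.

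The average over the 46 genes ran from 7.68 to 8.33 on the shSep15 arrays, from 7.73 to 8.83 in shTR1 cells and from 8.47 to 8.63 in shTR1/shSep15 cells. The ranges of the control and shTR1 arrays take in the whole range of the shTR1/shSep15 arrays. The highest shSep15 array lay below the lowest shTR1/shSep15 array. Control replicate 2 was the lowest of the 16 arrays for 32 of the 46 genes, and shTR1 replicate 2 was the highest for 19.

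The spread of a gene around its line means (residual SD of the 4-line fit) had a median of 0.53 over the members, against 0.25 over all genes and 0.36 over the 3582 genes with signals between the members' quartiles. Of the 46 members, 44 lay above the all-gene median, and 10.2% of all genes spread more than the median member. By line, the median SD of the members was 0.78 (control), 0.51 (shTR1), 0.29 (shSep15) and 0.15 (shTR1/shSep15), beside 0.29, 0.22, 0.19 and 0.17 for all genes. In shTR1/shSep15 cells, 19 of 46 members spread more than the median gene, against 42 in control cells.

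**Figure D2:**
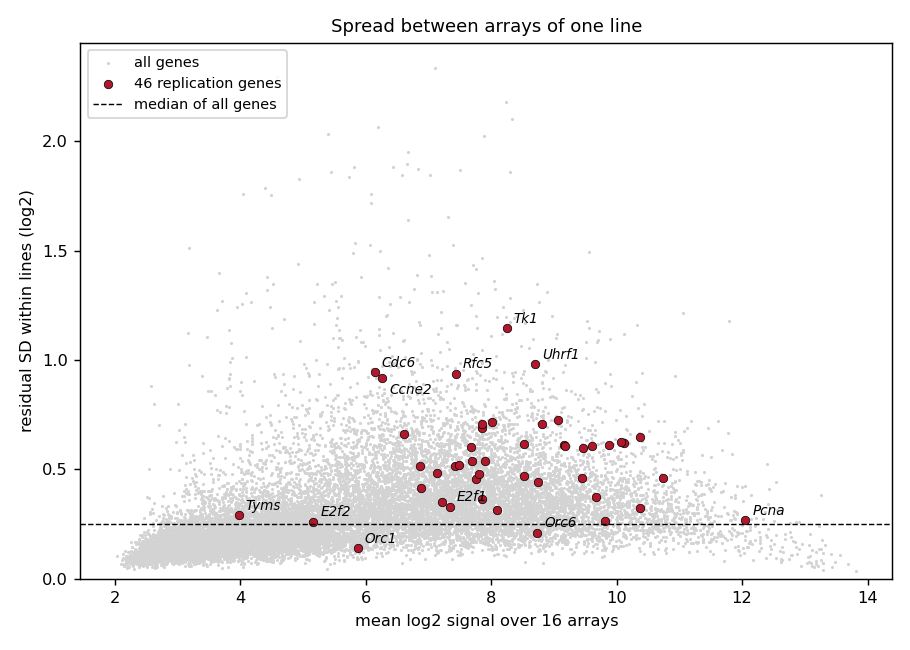
Residual SD within lines (vertical axis, log2) against mean log2 signal over 16 arrays (horizontal axis), with grey points for all 18193 genes, red points for the 46 replication genes and a dashed line at the median of all genes. Tk1 and Uhrf1 lie highest among the members at 1.14 and 0.98, and 44 of the 46 lie above the dashed line.

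The widest spread was that of Tk1, the thymidine salvage kinase of S phase, at 9.08, 5.21, 7.08 and 9.13 on control replicates 1 to 4. Uhrf1, which guides DNA methylation behind the fork, was likewise high on replicates 1 and 4, at 9.51, 5.98, 7.48 and 9.24. Cdc6, the helicase loader, was at 7.34, 4.39, 5.02 and 6.16, and Rfc5, a clamp loader subunit, at 8.34, 4.91, 6.67 and 8.15. Each of these 4 genes was high on control replicates 1 and 4 and lowest on replicate 2.

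In the arrays labelled shTR1, Cdc6 was at 4.81, 6.92, 7.54 and 5.63, a range of 2.73 on the log2 scale inside a single line. Ccne2, cyclin E2, was at 4.16, 6.86, 7.05 and 5.74 there. Both genes were high on replicates 2 and 3 and lowest on replicate 1.

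Of the 16 arrays, 10 had a median deviation of the members above 0.2 in size. On all 10 of them 21 of the 46 members (45.7%) deviated in the same direction as that median, against 2.54% of all genes and 4.61% of the genes of like signal. These 21 came from every role: Mcm3, Mcm4, Mcm5, Mcm6, Mcm7, Cdc6, Cdt1 and Gmnn of licensing, Mcm10, Gins2 and Cdc45 of firing, Pola1, Prim2, Pold1 and Pole of synthesis, Rpa2 and Rfc5 of the clamp loader and single-strand binding group, Rrm1 and Tk1 of nucleotide supply, Ccne1 of G1/S control, and Uhrf1. The arrays were grouped by the members themselves, so the count describes how evenly the genes moved and is not a test.

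A few members stood outside the pattern. Orc1, the largest subunit of the origin recognition complex, was at 5.88, 5.86, 5.71 and 6.23 on the control arrays and had a residual SD of 0.14, the smallest of the 46, although its promoter entry holds an E2F string. Orc6 had the next smallest (0.21). Slbp, which binds the stem-loop of replication-dependent histone mRNA, was highest on control replicate 2 (11.19), where most members were lowest, and at 10.65, 9.39 and 10.32 on the others. Pcna, the sliding clamp, had a residual SD of 0.27. Tyms, thymidylate synthase, was read from a dim probe set, at 3.25 to 4.36 on all 16 arrays.

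**Figure D3:**
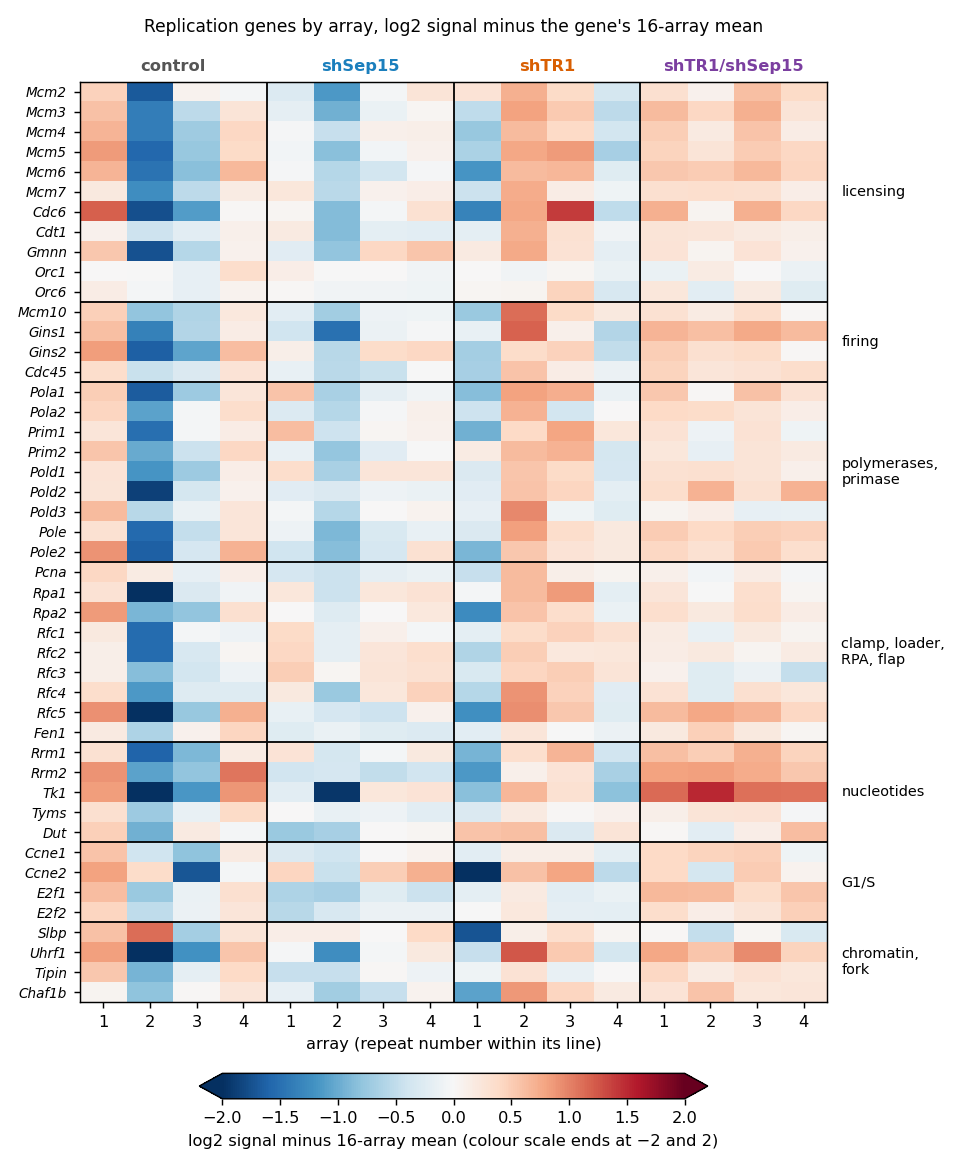
Log2 signal of the 46 replication genes (rows, ordered by role) minus each gene's mean over 16 arrays (columns, by line), red above and blue below, with a colour scale that ends at −2 and 2. Control replicate 2 is blue in nearly every row, Orc1 and Orc6 are pale throughout, and the 4 shTR1/shSep15 columns are alike.

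Other genes of replication moved with the members. Of a list of 46 replication genes that are not members, 44 were measured, and 41 of them lay above the control mean on control replicate 1 and 6 on control replicate 2. On all 10 arrays of large deviation 19 of the 44 (43.2%) followed the members. The 9 measured genes of G2 phase and mitosis (among them Plk1, Aurka, Top2a and Cdk1) were above their mean on control replicates 1 and 4 in 9 of 9 cases each, and below it in 9 of 9 cases on control replicate 3 and shTR1 replicates 1 and 4. On control replicate 2, 2 of 9 lay above the mean (median −1.10), and on shTR1/shSep15 replicate 4 all 9 lay below it (median −0.15), where the median of the members was −0.10. The medians of the 7 cell cycle inhibitors lay within 0.16 of their line on all 16 arrays. They ran in part the other way: the control medians were −0.02, 0.10, 0.09 and −0.09. On shTR1 replicate 3, 0 of 7 lay above the line mean, and on shTR1 replicate 4, 7 of 7 did. Single inhibitors spread more than these medians show, with a median residual SD of 0.41 (all genes 0.25, genes of like signal 0.36). Cdkn2a, Cdkn1c and Cdkn2b were dim, with means of 3.41, 3.80 and 4.84 over 16 arrays. The difference between the 3′ and 5′ probe sets of Actb, a measure of RNA integrity, was highest on control replicate 2 (0.786, against 0.413 to 0.442 on the other control arrays) and next highest on shTR1 replicate 1 (0.563), the lowest arrays of the members in their lines. On control replicate 3, shTR1 replicate 4 and shSep15 replicate 2, the other low arrays, it was 0.442, 0.502 and 0.433, within the range of the remaining arrays. The difference between the 3′ and 5′ probe sets of Gapdh was not raised on control replicate 2 (−0.113, against −0.125 to −0.073 on the other control arrays) and was highest on shTR1 replicate 1 (0.029). Call counts with the mean 3′ to 5′ difference of Actb and Gapdh as a covariate, and without both arrays where it was highest, are given below. Beyond these fits, the part of RNA integrity in the result was not tested.

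Differences between lines were therefore read against a wide spread, and 1 member passed the test in 1 of 7 comparisons. Each comparison was fitted over all 16 arrays with limma, and p-values were adjusted by the Benjamini-Hochberg method over 45037 probe sets. In the F-test over all 4 lines 0 of 46 members passed (3.28% of all genes did), and 1 of 46 had an unadjusted p under 0.05 in a plain analysis of variance (E2f1, 2.17%, against 15.5% of all genes). By line mean, shTR1/shSep15 cells were highest for 31 of the 46 members and lowest for 0, and shSep15 and control cells were lowest for 22 and 21.

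In shSep15 cells against control, 22 members were higher and 24 lower. Their median log2 difference was −0.01 (all genes −0.02, genes of like signal 0.12). No member passed (0 of 46, against 2.72% of all genes). At an unadjusted limma p under 0.05, 1 member was higher (10.1% of all genes) and 2 were lower (5.19% of all genes). For 0 members did all 4 shSep15 arrays lie above all 4 control arrays (4.81% of all genes), or below them (2.76%). The median difference depended on single control arrays and turned direction, to 0.24 without control replicate 1, to 0.17 without replicate 4 and to −0.30 without replicate 2, and it was 0.18 without shSep15 replicate 2.

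The 3 members with a low unadjusted p were Rfc3, Pcna and E2f1. Rfc3, a clamp loader subunit, was at 8.21, 7.24, 7.72 and 7.99 in control cells and at 8.58, 8.12, 8.34 and 8.40 in shSep15 cells, a difference of 0.57 (SE 0.21, limma adjusted p = 0.238). Pcna was at 12.47, 12.22, 11.89 and 12.18 in control cells and at 11.72, 11.62, 11.88 and 11.93 in shSep15 cells. Its difference of −0.41 (SE 0.18) had a limma adjusted p of 0.362. E2f1, the transcription factor of the G1/S switch, was at 7.96, 6.60, 7.20 and 7.66 in control cells and at 6.72, 6.67, 7.10 and 6.91 in shSep15 cells. The difference of −0.50 (SE 0.22, limma adjusted p = 0.351) became −0.75 (adjusted p = 0.0261) without control replicate 2. In all 3 genes the arrays of the lines overlapped. Among the other replication genes Pole4, an accessory subunit of polymerase ε, passed (1 of 44, against 2.72% of all genes). Its difference was −0.64 (SE 0.11, limma adjusted p = 0.00756). Of these 44 genes, 23 were higher and 21 lower.

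In the arrays labelled shTR1 against control, 38 members were higher and 8 lower, with a median of 0.35 (all genes −0.03). The 3582 genes of like signal had a median of 0.17, with 2508 higher and 1073 lower. No member passed (0 of 46, against 0.275% of all genes). At an unadjusted p under 0.05, 1 member was higher (9.08% of all genes) and 0 were lower (4.88%). All 4 arrays lay above control for 0 members (3.28% of all genes) and below for 0 (1.43%). The gene with the low unadjusted p was again Rfc3, at 7.78, 8.51, 8.58 and 8.34 (difference 0.51, SE 0.21, limma adjusted p = 0.369). Without control replicate 2 the median of the members was −0.01, without control replicate 1 it was 0.59, without shTR1 replicates 2, 3 or 1 it was 0.10, 0.17 or 0.53, and without both arrays of high Txnrd1 it was 0.20.

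The largest differences of members in this comparison were those of Uhrf1 (0.88, SE 0.63), Rpa1, a subunit of the single-strand binding complex (0.85, SE 0.40), and Gmnn, the inhibitor of Cdt1 (0.69, SE 0.40), with limma adjusted p of 0.565, 0.428 and 0.499. E2f1, E2f2 and Ccne1 lay close to control, at −0.10, −0.05 and 0.06.

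In shTR1/shSep15 cells against control, 41 members were higher and 5 lower. Their median was 0.48 (all genes 0.01, genes of like signal 0.13). No member passed the adjusted test (0 of 46, against 0.0385% of all genes). At an unadjusted p under 0.05, 6 were higher (13% of the members, against 6.2% of all genes) and 0 were lower (2.59% of all genes). For 6 members all 4 shTR1/shSep15 arrays lay above all 4 control arrays (4.31% of all genes), and for 0 below (1.35% of all genes). Of the 3582 genes of like signal, 435 were higher and 150 lower at that unadjusted p, and 321 lay above and 67 below in this way. Genes of like signal thus also exceeded the shares of all genes for higher values. The median of the members moved to 0.20 without control replicate 2 and to 0.73 without control replicate 1.

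The widest difference was that of Tk1, followed by Uhrf1 and Rrm1. Tk1 was at 9.38, 9.75, 9.35 and 9.34 in shTR1/shSep15 cells, above its 2 high control arrays (9.08 and 9.13), and the difference of line means was 1.83 (3.55-fold, SE 0.74, limma adjusted p = 0.543). Rrm1, the large subunit of ribonucleotide reductase, was at 9.76, 7.87, 8.56 and 9.62 in control cells and at 10.07, 9.94, 10.17 and 9.90 in shTR1/shSep15 cells. Its difference was 1.07 (SE 0.39, limma adjusted p = 0.501). Both genes lay above every control array, by a margin much smaller than the difference of the means.

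Among the polymerases, Pold2, a subunit of polymerase δ, was at 8.16, 6.03, 7.54 and 7.99 in control cells and at 8.25, 8.59, 8.21 and 8.59 in shTR1/shSep15 cells (difference 0.98, SE 0.35, limma adjusted p = 0.494). Pole, the catalytic subunit of polymerase ε, was at 7.78, 5.93, 7.01 and 7.73 in control cells and at 7.998, 7.89, 7.98 and 7.94 (difference 0.84, SE 0.34, limma adjusted p = 0.548). Gins1, of the GINS complex that activates the helicase, was at 7.21, 5.27, 6.03 and 6.76 and at 7.29, 7.22, 7.37 and 7.25 (difference 0.97, SE 0.43, limma adjusted p = 0.587). Cdt1, which loads the helicase, was at 10.45, 9.95, 10.16 and 10.47 and at 10.63, 10.61, 10.54 and 10.48 (difference 0.31, SE 0.22, adjusted p = 0.771). For all 4 genes the lowest shTR1/shSep15 array lay above the highest control array, for Gins1 and Cdt1 by a very small margin.

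E2f1 had a difference of 0.54 (SE 0.22, limma adjusted p = 0.549) with overlapping arrays. Uhrf1 (1.32, SE 0.63), Rfc5 (1.04, SE 0.60) and Cdc6 (0.88, SE 0.61) had wider differences with adjusted p of 0.624, 0.712 and 0.765 from limma, and their control arrays were among the widest. Slbp (−0.50, SE 0.41), Pcna (−0.09, SE 0.18) and Orc1 (−0.07, SE 0.11) lay on the other side of control. By role, the members higher than control numbered 9 of 11 in licensing, 4 of 4 in firing, 8 of 9 among polymerases and primase, 8 of 9 among clamp, loader and single-strand binding, 5 of 5 in nucleotide supply, 4 of 4 in G1/S control and 3 of 4 in chromatin and fork protection. Of the 44 other replication genes 33 were higher, with a median of 0.29, and so were 9 of 9 genes of G2 phase and mitosis, with a median of 0.72. None of these genes passed the adjusted test.

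**Figure D4:**
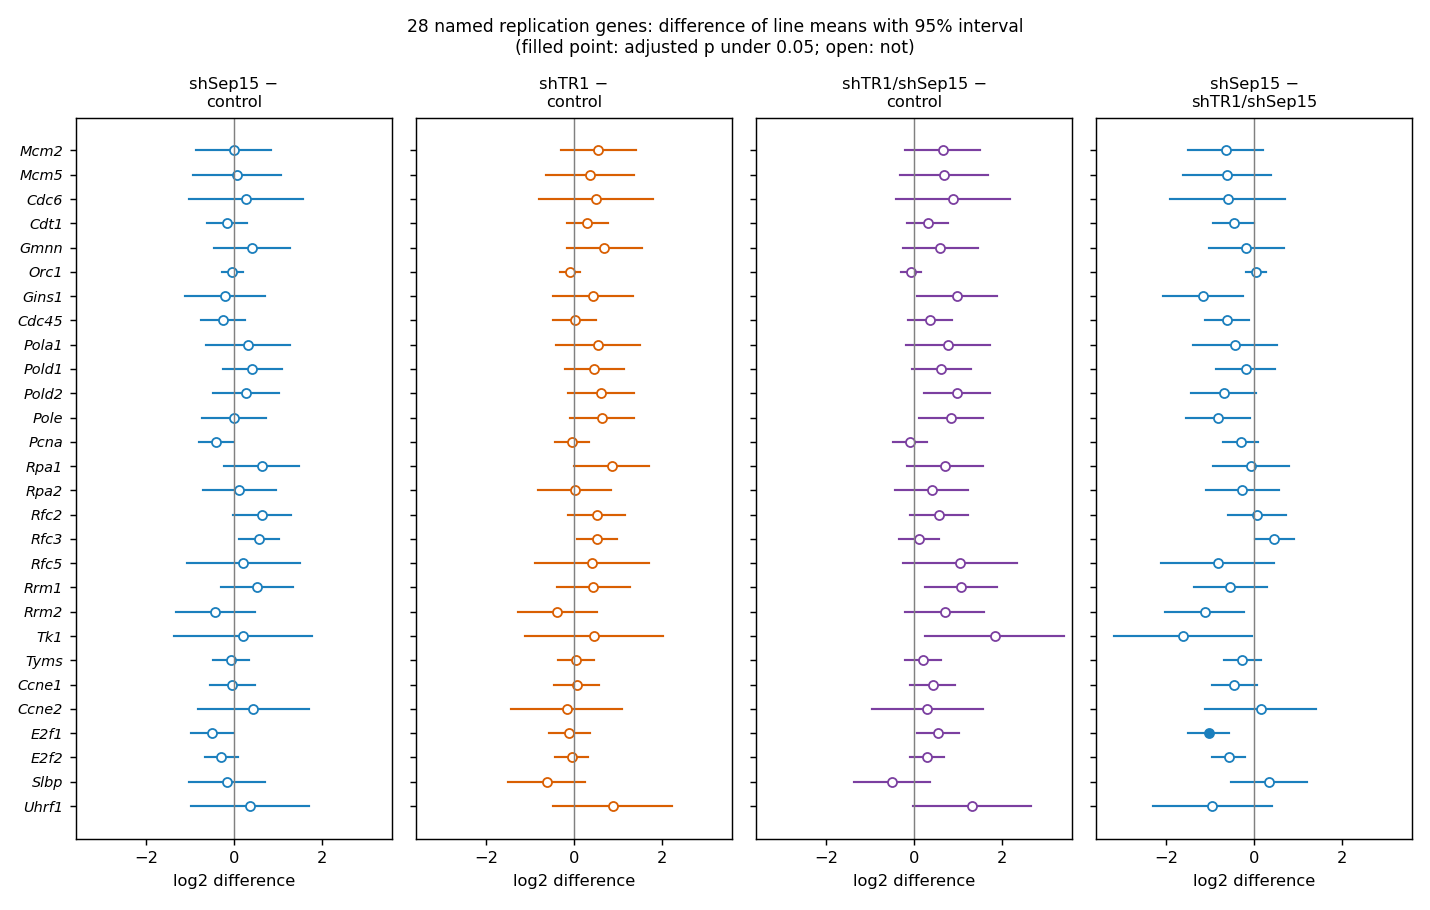
Differences of line means (horizontal axes, log2, with 95% intervals) of 28 named replication genes in 4 comparisons, filled where the limma adjusted p was under 0.05. Most intervals span 0 in all panels, and the only filled point is E2f1 at −1.04 in shSep15 minus shTR1/shSep15.

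The clearest contrast of the members lay between shSep15 and shTR1/shSep15 cells, the lines whose arrays spread least. Of the 46 members, 41 were lower in shSep15 cells and 5 higher, with a median of −0.47 (all genes −0.03). E2f1 passed the adjusted test (1 of 46, 2.17%, against 3.5% of all genes). At an unadjusted p under 0.05, 9 members were lower (19.6%, against 7.18% of all genes) and 1 was higher (against 8.3% of all genes). For 22 of the 46 (47.8%) all 4 shSep15 arrays lay below all 4 shTR1/shSep15 arrays, against 9.5% of all genes, and for 0 all 4 lay above, against 8.27% of all genes. Of the 3582 genes of like signal, 604 lay below and 558 above in this way. At an unadjusted p under 0.05, 426 of these genes were lower and 518 higher, and their median was 0.02.

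The fit over all 16 arrays gives every line the same residual variance, which for the members comes largely from the control and shTR1 arrays. When shSep15 and shTR1/shSep15 arrays were fitted alone, 14 of the 46 members passed (30.4%, against 10.7% of all genes), all of them lower in shSep15 cells. These were Mcm3, Mcm6, Pold2, Pole, Rfc5, Gins1, Cdc45, Rrm1, Rrm2, Fen1, E2f1, E2f2, Tipin and Chaf1b. The median residual SD of the members was 0.24 in that fit, beside 0.20 for all genes. Same-numbered arrays of these lines deviated together in all 4 pairs (correlations across all genes of 0.14 to 0.49). With the replicate number as a block in the fit of both lines, 22 members passed (47.8%, against 16.3% of all genes), 21 of them lower in shSep15 cells and Rfc3 higher. Of the 14 without the block, 13 passed in both fits and Chaf1b did not (limma adjusted p = 0.0532).

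E2f1 was at 6.72, 6.67, 7.10 and 6.91 in shSep15 cells and at 7.99, 7.98, 7.71 and 7.90 in shTR1/shSep15 cells. The groups did not overlap, and the difference was −1.04 (2.06-fold lower, SE 0.22, limma adjusted p = 0.0195). A further E2f1 probe set passed as well, with a difference of −1.37 (limma adjusted p = 0.0409), and the last, a dimmer probe set, was at −0.33 (adjusted p = 0.573). The call of the first ended without any of shSep15 replicates 1, 2 or 4 or shTR1/shSep15 replicates 1, 2 or 4 (adjusted p = 0.0527 to 0.0642), while the difference in these fits stayed between −0.98 and −1.06. E2f2, another gene of the E2F family, was at 4.60, 4.85, 5.04 and 5.04 in shSep15 cells and at 5.51, 5.29, 5.41 and 5.64 in shTR1/shSep15 cells (difference −0.58, SE 0.18, limma adjusted p = 0.111). Both E2F genes were lower on every shSep15 array than on any shTR1/shSep15 array.

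Rrm2, the small subunit of ribonucleotide reductase whose synthesis peaks in S phase, was at 9.99, 10.04, 9.88 and 9.995 in shSep15 cells and at 11.19, 11.20, 11.12 and 10.91 in shTR1/shSep15 cells. The difference of −1.13 (2.18-fold lower, SE 0.42) had an adjusted p of 0.217 in the limma fit over 16 arrays and of 0.00023 in the fit of both lines alone. The control arrays lay at 11.27, 9.31, 9.59 and 11.44 and the shTR1 arrays at 9.23, 10.48, 10.65 and 9.73. Its other probe sets had differences of −1.19 and −1.48. Rrm2 thus took nearly the same value on all arrays of shSep15 and of shTR1/shSep15 cells and split into a high and a low pair in control and shTR1 cells.

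Tk1 was at 8.03, 6.31, 8.48 and 8.53 in shSep15 cells, below all shTR1/shSep15 arrays (difference −1.62, SE 0.74, limma adjusted p = 0.356). Gins1 was at 6.22, 5.12, 6.49 and 6.59, also below them all (difference −1.18, SE 0.43, limma adjusted p = 0.201). Fen1, the flap nuclease of Okazaki fragments, was at 9.56, 9.69, 9.57 and 9.53 in shSep15 cells and at 10.01, 10.29, 10.002 and 9.86 in shTR1/shSep15 cells (difference −0.45, SE 0.18, limma adjusted p = 0.263). Cdc45, which joins GINS at the helicase, was at 7.07, 6.68, 6.77 and 7.21 and at 7.66, 7.46, 7.51 and 7.57 (difference −0.62, SE 0.23, limma adjusted p = 0.225). Tk1 and Gins1 had 1 much lower shSep15 array, replicate 2, while Fen1 and Cdc45 did not. The gap between the lines was small for Fen1 (highest shSep15 array 9.69, lowest shTR1/shSep15 array 9.86) and for Cdc45 (7.21 and 7.46).

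Rfc3 was the member that ran the other way. It was 0.46 higher in shSep15 than in shTR1/shSep15 cells (SE 0.21, limma adjusted p = 0.368), where it was at 8.18, 7.84, 7.98 and 7.61, and the arrays overlapped. Slbp (0.34), Ccne2 (0.14), Rfc2 (0.07) and Orc1 (0.03) were the other members with a higher mean in shSep15 cells.

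By role, all 4 shSep15 arrays lay below those of shTR1/shSep15 cells for 4 of 11 licensing genes (Mcm3, Mcm4, Mcm5 and Mcm6), 3 of 4 firing genes, 4 of 9 polymerase and primase genes, 3 of 9 clamp, loader and single-strand binding genes, 3 of 5 nucleotide genes, 2 of 4 G1/S genes and 3 of 4 chromatin and fork genes. The same was seen for 14 of 44 other replication genes, while 3 lay above, and for 8 of 9 genes of G2 phase and mitosis. Of all genes, 9.5% lay below and 8.27% above in this way. Pold4, an accessory subunit of polymerase δ, was the 1 gene of the 44 other replication genes that passed the adjusted limma test, against 3.5% of all genes. Its difference was −1.40 (SE 0.27, limma adjusted p = 0.0131). Whether the lists differ from each other was not tested.

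**Figure D5:**
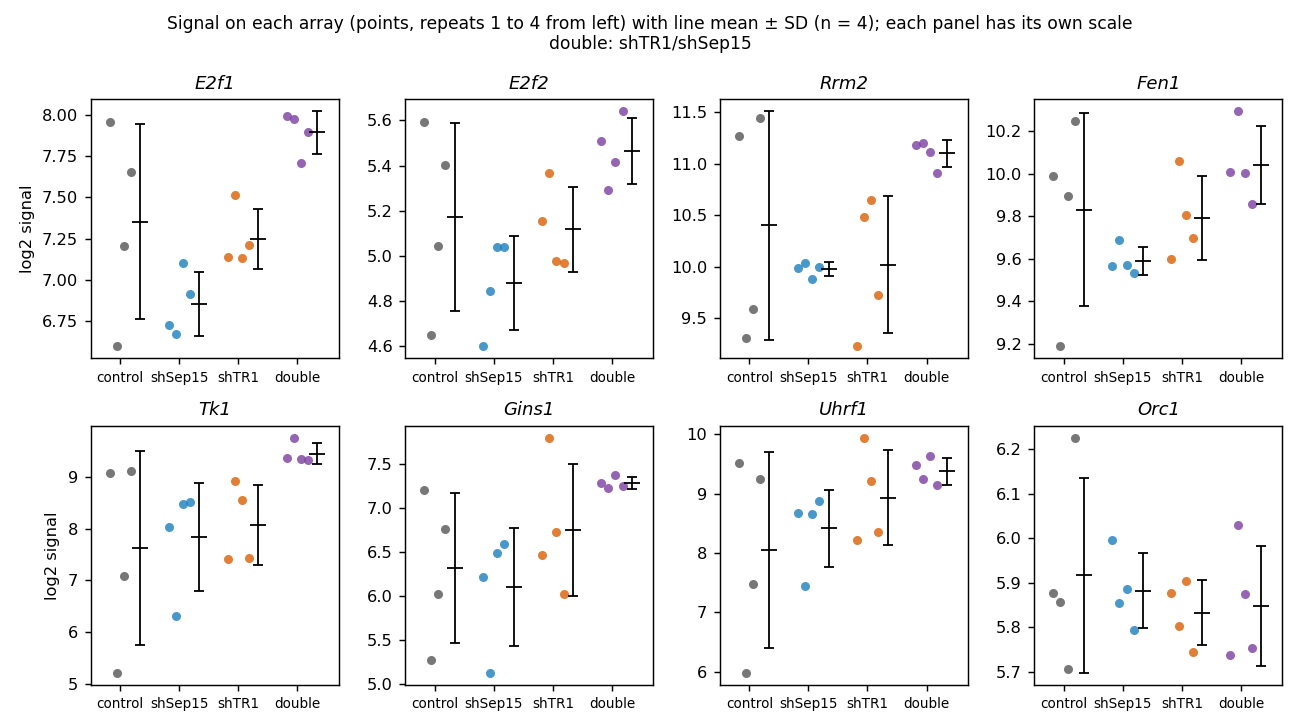
Log2 signal of 8 replication genes on each array (points, replicates 1 to 4 from left to right within each line) with line mean ± SD (n = 4), each panel on its own vertical scale. E2f1, E2f2, Rrm2 and Fen1 are lower on all shSep15 arrays than on all shTR1/shSep15 arrays, Tk1, Gins1 and Uhrf1 have wide control arrays, and Orc1 differs little.

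The direct comparisons that involve shTR1 cells gave few low p-values. Between shTR1 and shTR1/shSep15 cells, 35 members were lower in shTR1 and 11 higher, with a median of −0.24 (all genes −0.05), which became −0.04 without shTR1 replicate 1 −0.41 without shTR1 replicate 2 and −0.40 without both arrays of high Txnrd1. No member passed (0 of 46, against 0.11% of all genes), and at an unadjusted p under 0.05, 2 were lower (4.73% of all genes) and 0 higher (6.61%). These were Rrm2, with a difference of −1.08 (SE 0.42, limma adjusted p = 0.379), and E2f1, at 7.14, 7.51, 7.13 and 7.21 on the shTR1 arrays, with −0.65 (SE 0.22, limma adjusted p = 0.3). Both lay below shTR1/shSep15 on every array, as did Tk1 (3 of 46 members, 6.52%, against 744 of all 18193 genes). For 0 members did all shTR1 arrays lie above all shTR1/shSep15 arrays (968 of all genes).

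Between shSep15 and shTR1 cells, 38 members were lower in shSep15 and 8 higher, with a median of −0.22 (all genes 0.02), which became −0.06 or −0.10 without shTR1 replicate 2 or 3, −0.09 without shSep15 replicate 2 and −0.05 without both arrays of high Txnrd1. No member passed (0 of 46, against 0.945% of all genes). At an unadjusted p under 0.05, 1 was lower (5.04% of all genes), which was Cdt1 (−0.46, SE 0.22, limma adjusted p = 0.633), and 0 were higher (4.2%).

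Whether both hairpins together differ from the sum of each was asked gene by gene as the shTR1/shSep15 difference minus the differences of both single knockdowns, all against control. The median of the members was 0.14 (all genes 0.07), with 34 members above 0. No member passed (0 of 46, against 3.8% of all genes), and at an unadjusted p under 0.05, 3 lay above 0 (7.43% of all genes) and 1 below (11.5%). Those above were the E2F genes and Rrm2: E2f1 at 1.15 (SE 0.31, limma adjusted p = 0.0645), Rrm2 at 1.51 (SE 0.60, adjusted p = 0.223) and E2f2 at 0.64 (SE 0.25, adjusted p = 0.223). Rfc3 lay below, at −0.97 (SE 0.30, limma adjusted p = 0.106). The median of the members was −0.07 without control replicate 1, −0.01 without shTR1 replicate 1 0.48 without control replicate 2 and 0.33 without both arrays of high Txnrd1, so that its direction turned with single arrays.

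Further probe sets of the same genes mostly had the same direction. Of the 56 further probe sets of the members, 45 had the sign of the chosen one in shSep15 against control, 37 in shTR1 against control, 46 in shTR1/shSep15 against control and 44 in shSep15 against shTR1/shSep15. In the last comparison 2 of them passed the adjusted limma test, 1 of E2f1 (above) and 1 of Gins1 (−0.72, adjusted p = 0.0278), and in the first 3 comparisons 0 did. Over all 45037 probe sets, 710 passed as higher and 486 as lower in shSep15 against shTR1/shSep15.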

How the data were processed

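Total RNA from TRIzol was labelled as biotinylated cRNA and hybridized to Affymetrix mouse genome arrays. The authors deposited log2 signals from RMA (version not given in the sources used here), 1 value per probe set and array, and these were used without further normalization. Of 45101 probe sets, 64 control probe sets were left out and 45037 tested. The platform annotation gave 1 symbol to 34945 probe sets, several to 932 and none to 9160, and 34741 were matched to current symbols by gene number. Lines were fitted as 4 means with limma 3.58.1 in R 4.3.3 (lmFit, eBayes, 12 residual and 2.58 prior degrees of freedom), tested on simulated data, with Benjamini-Hochberg adjustment over 45037 probe sets and a threshold of 0.05. The number of arrays (4 per line) limits the precision. Same-numbered arrays deviated together in every pair (correlation over 0.1) for 1 of 6 pairs of lines, shSep15 and shTR1/shSep15, as seen in the data and not in the labels. Members and lists were chosen with earlier results of these data known. Members were named if they passed the test, were among the 6 with the largest difference from control in a knockdown line, were among the 5 with the largest SD within lines, or stood for a role. Promoters came from RefSeq (GRCm38.p6). Motif counts and plots used Python 3.11.15, numpy 2.4.6 and matplotlib 3.10.9. Alternatives were normalization, probe set choice and filter, array weights, covariates, a replicate block, the lines fitted and left-out arrays.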

Additional observations from a re-analysis of the deposited data

Results flagged for a closer look

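In 116 groups of 4 arrays, 7 had 1 array far from the other 3 by the Dixon gap, where chance flags about 1 in 20 groups. On shSep15 replicate 2, Mcm5 was at 8.23 (others 9.01 to 9.16), Rpa1 at 9.69 (others 10.35 to 10.42), Pold1 at 7.15 (others 8.04 to 8.15) and Uhrf1 at 7.45 (others 8.65 to 8.88). Slbp was at 8.34 on shTR1 replicate 1 (others 10.10 to 10.40). Tk1 was at 9.75 on shTR1/shSep15 replicate 2 (others 9.34 to 9.38), and Ccne1 at 7.77 on shTR1/shSep15 replicate 4 (others 8.24 to 8.34).

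E2f1 differed between shSep15 and shTR1/shSep15 cells by −1.04 in the limma test. Against the control mean, all 4 shSep15 arrays lay below and all 4 shTR1/shSep15 arrays above for E2f1 (difference of both lines −1.04), Rrm2 (−1.13), Fen1 (−0.45) and E2f2 (−0.58). The opposite directions against control were not tested as such. The share of all genes with this pattern was not counted, so it is not a result about the members. For Rrm2 each control array (11.27, 9.31, 9.59 and 11.44) lay above every shTR1/shSep15 array or below every shSep15 array.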

How the results depend on the processing

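Results were recomputed under 29 settings, 13 of them beyond single left-out arrays. Leaving out both shTR1 arrays of high Txnrd1, leaving out both arrays of the highest 3′ to 5′ difference, and the replicate block in the fit of shSep15 and shTR1/shSep15 alone were chosen after seeing the data. Of the comparisons tested on the members, the count of calls changed in 3. In shSep15 against control (0 calls) it was 1 without both arrays of the highest 3′ to 5′ difference and 0 to 1 with single arrays left out, 1 being E2f1 without control replicate 2. In shSep15 against shTR1/shSep15 (1 call) it was 14 with only these lines fitted, 22 with only these lines fitted and the replicate block, 9 with array weights, 2 with the 3′ to 5′ covariate, 2 with all probe sets of a gene, 6 without both arrays of the highest 3′ to 5′ difference, and 0 to 4 with single arrays left out, 4 being without control replicate 2. In the non-additivity comparison (0 calls) it was 1 with bright probe sets only, 1 after quantile normalization, 5 with array weights, 1 with the covariate, 4 without both arrays of the highest 3′ to 5′ difference, and 0 to 3 with single arrays left out, 3 being without control replicate 2 and 1 without shTR1 replicate 1. For left-out arrays and array weights the cause was not tested. In shSep15 against shTR1/shSep15, 3.5% of all genes passed in the main fit. With only these lines fitted 10.7% of all genes passed, and 16.3% with the replicate block as well. For the other settings the share of all genes was not counted, so their counts are not a result about the members.

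Same-numbered arrays correlated in their deviations from line means at −0.47 to 0.49, over 0.1 in 8 of 24 pairs, 4 of these being the pairs of shSep15 and shTR1/shSep15. In the fit of all 16 arrays the replicate block left the call counts of the members at 0, with 1 in shSep15 against shTR1/shSep15, and the medians against control at −0.01, 0.35 and 0.48. The array medians of the members had a pooled SD of 0.46 within lines, close in size to the largest median difference from control.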
